A study of Mus musculus with 21 samples.

Results

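The genes described here encode hormones and peptides that signal hunger or satiety, their receptors, and the enzymes that cut peptide precursors into active hormones. They were chosen by name as 42 genes: 19 encode ligands, 21 encode receptors and 2 encode prohormone convertases. All 42 were found among the 43193 gene symbols of the deposited annotation, each at 1 locus. RNA came from circumvallate taste buds, at the back of the tongue, of wild type C57BL/6J mice 20 to 24 weeks old. There were 21 libraries, with 7 labelled Ad lib, 7 Satiated and 7 Hungry, and the mice of all 3 groups shared strain, genotype and age. The series design calls the feeding states fed, fasted and ad libitum fed, and the labels used here give no fasting time.

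Hormones such as ghrelin from the stomach, leptin from fat and peptides from enteroendocrine cells of the gut act mainly on the brain, where neuropeptides raise or lower food intake. Taste buds are also known to hold several of these peptides and receptors, and leptin and endocannabinoids are known to modulate sweet taste. Peptide hormones are made as long precursors, which convertases cleave inside secretory granules.

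The expression table gives 1 mean and 1 variance per locus, repeated for conditions C, F and H. Of 32052 loci, 0 differed between the conditions in any of the 5 value columns. Every level below is therefore a mean over all 21 libraries, with no level of a single library and no comparison of feeding states. Levels are fragments divided by a size factor for library depth, and the mean library held 21881979 compatible and 23769781 total fragments. Compatible fragments match an annotated transcript, while the total counts all fragments of a locus. The coefficient of variation (CV) comes from the authors' variance. Loci with fragments in 1 library took 3 values of variance over squared mean, 18.4, 18 and 17.5, which sets of 8, 7 and 6 libraries give. The CV therefore describes spread inside sets of libraries and leaves out differences between them. The labels give 7 libraries in each feeding group, so these set sizes differ from the labelled groups, and which libraries made up a set was not recoverable.

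The taste bud markers were present: Krt8, a keratin of taste cells, had 37058 compatible fragments, Gnat3 had 24576 and Pkd2l1 of sour-sensing cells had 4859.8. A gene was called detected from a mean of 10 compatible fragments upwards. All 7 listed taste bud markers were, against 67.6% of protein-coding symbols, and 5 of the 7 had a locus to themselves. Of 6 fat cell genes, 2 were detected, against 67.6% of protein-coding symbols: the lipase gene Lpl at 264 fragments and Lep at 10.6. Plin1 had 0.147 compatible fragments, Fabp4 0.189 and Cidec 0. Adipoq was listed at 0 compatible but had 85.5 total fragments.

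Of the 42 genes, 17 were detected, against 67.6% of 20650 protein-coding symbols. Among receptors, 12 of 21 were detected. Only 4 of 19 ligands were, and of these Calca and Lep alone had a locus to themselves. The convertase gene Pcsk1 was detected and Pcsk2 was not. A further 15 of the 42 had a mean above 0 and below 10 fragments, and 10 were listed at 0 compatible fragments. At the edge of detection stood Lep, just inside with 10.6 fragments, and the enkephalin precursor gene Penk, just outside with 9.53.

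**Figure D1:**
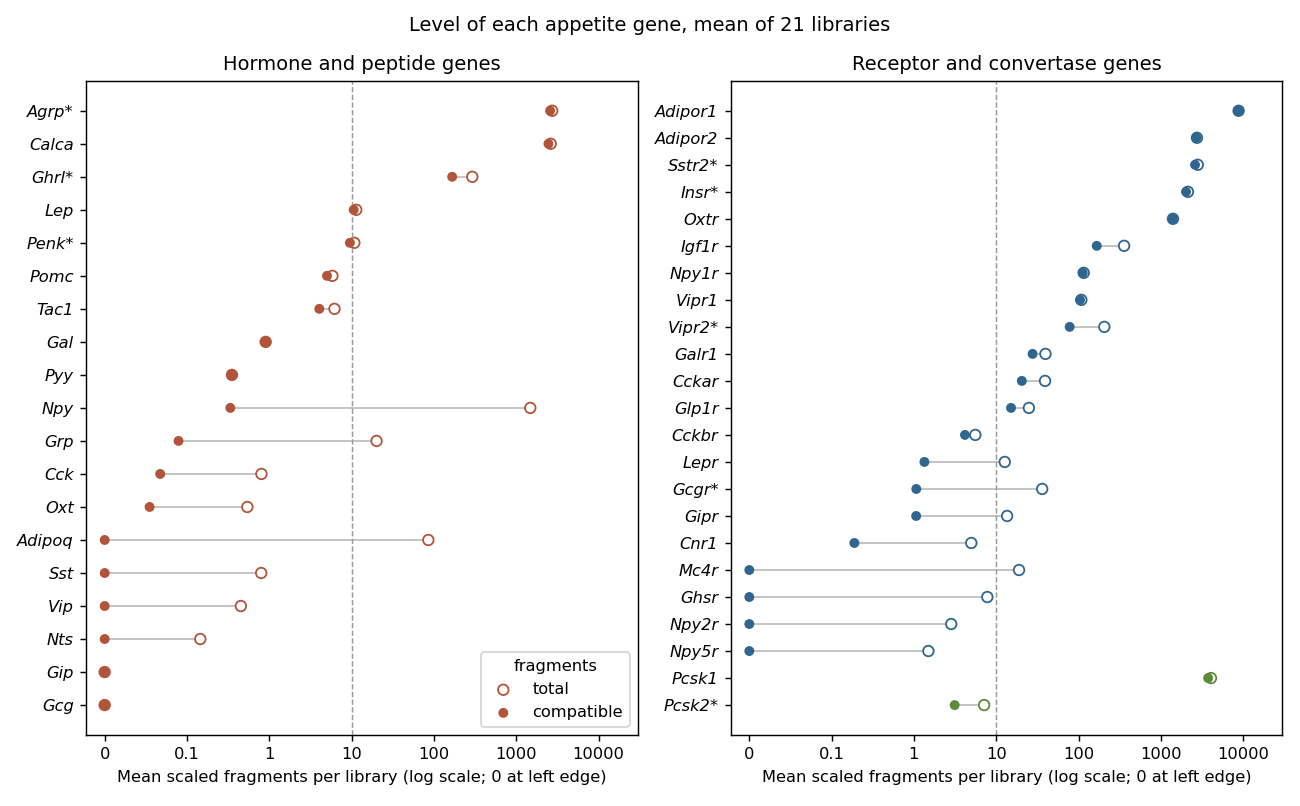
Mean fragments per library of each of the 42 genes, on a log axis with 0 at the left edge. Filled points are compatible fragments, open points are total fragments, the dashed line is the detection level of 10, and an asterisk marks a locus shared with other genes. Npy has the longest gap between its points among genes above 0, from 0.336 to 1482.

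Levels of different genes were compared per kilobase of annotated exon and only at loci holding 1 gene. By this measure Adipor1, a receptor for the fat-derived hormone adiponectin, was highest at 1745 fragments per kb with an SD of 107. Calca followed at 1663 with an SD of 350.2 and Pcsk1 at 1157 with an SD of 234. Adipor1 and Calca differed by less than the SD of Calca. Both lay near the sour-cell channel gene Pkd2l1, at 1377 per kb, and far under Gnat3, at 19066. Adipor2 had 452 per kb and Oxtr 307. Npy1r, Igf1r and Vipr1 came next at 37.4, 37.1 and 18.7. Npy1r and Igf1r differed by less than their SDs of 24.3 and 11.0, but had 38.4 and 79.6 per kb by total fragments. Glp1r, Galr1 and Cckar had 10.2, 9.63 and 6.98 per kb, also within their SDs of each other. An SD here describes the spread of libraries within sets and not the error of a mean. Whether genes differed in level was not tested. Lep was lowest of the 12 at 3.16 per kb. For scale, the median of 8696 detected single-gene loci was 134 per kb, so 5 of the 12 genes lay above it and 7 below.

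**Figure D2:**
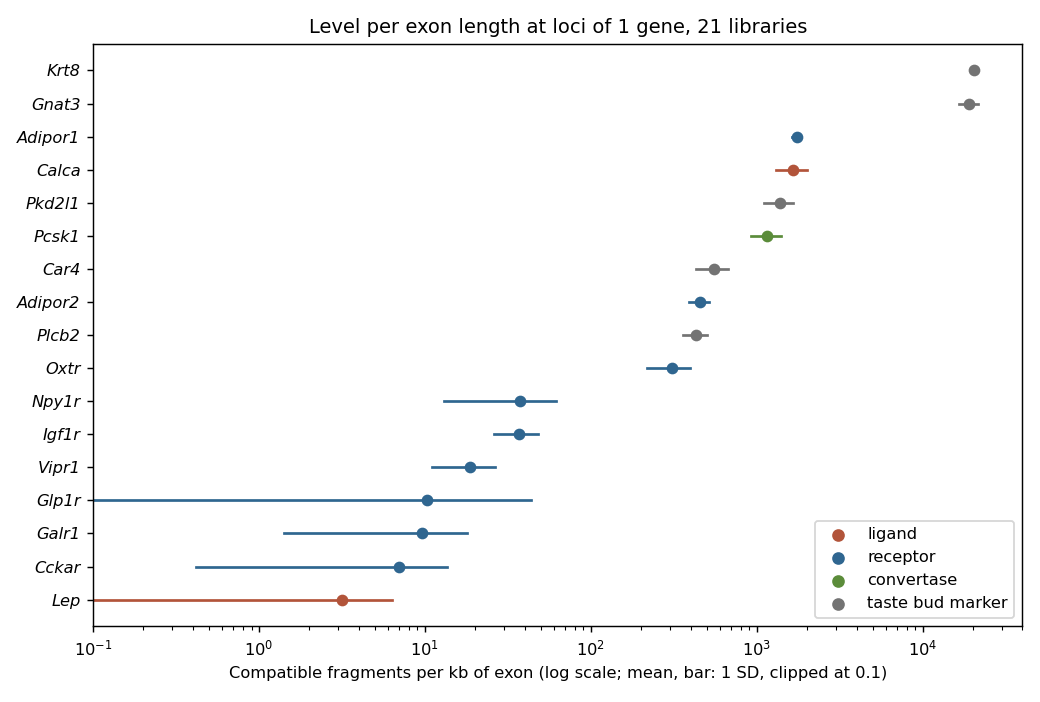
Compatible fragments per kb of exon (log axis) for the 12 detected genes with a locus of their own and for 5 taste bud markers. Points are means of 21 libraries and bars are 1 SD from the authors' variance. Adipor1, Calca and Pcsk1 sit beside Pkd2l1, and 7 genes sit at or below 37.4.

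Among the 19 ligand genes of the 42, Calca was the only one with a locus of its own and more than 10.6 compatible fragments. It encodes both calcitonin and calcitonin gene-related peptide (CGRP), a sensory neuropeptide, by alternative splicing. Its locus (chromosome 7, 114631480 to 114636357, minus strand, GRCm38) had 2462 compatible fragments with a CV of 0.211 and 2624 total fragments. The annotation holds 2 Calca transcripts, 1 for each hormone, and the table gives a single level for both. They share the first 227 coding bases and then differ, so the reads that would separate them lie in the following coding ends. Each line shows the last 12 shared bases in lower case and the coding bases of 1 transcript alone in capitals, 157 for CGRP (114632443 to 114632599) and 181 for calcitonin (114633605 to 114633785), 5′ to 3′ on the coding strand from GENCODE M21.
Calca, CGRP end: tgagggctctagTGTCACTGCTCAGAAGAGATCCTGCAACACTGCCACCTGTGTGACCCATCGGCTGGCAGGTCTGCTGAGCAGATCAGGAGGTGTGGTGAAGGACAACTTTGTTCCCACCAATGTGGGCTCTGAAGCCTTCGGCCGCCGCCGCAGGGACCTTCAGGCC
Calca, calcitonin end: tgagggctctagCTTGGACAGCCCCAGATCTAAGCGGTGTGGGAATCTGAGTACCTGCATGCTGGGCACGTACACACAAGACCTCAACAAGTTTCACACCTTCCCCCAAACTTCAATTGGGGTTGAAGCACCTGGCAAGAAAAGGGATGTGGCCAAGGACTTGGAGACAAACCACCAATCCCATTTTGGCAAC
The receptor for CGRP needs Calcrl together with the accessory protein gene Ramp1, and these had 669 and 73.1 fragments. Calcr, the calcitonin receptor gene, had 0.0403 fragments, all in 1 library, at a locus with 2 other gene symbols. Calcb, which encodes a second CGRP, had 54.2 fragments with a CV of 0.960. A similar copy such as Calca can share its reads, which leaves both levels uncertain, and such sharing was not measured.

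Calca is also a gene of sensory neurons, whose fibres reach taste buds. Of 6 sensory neuron markers, 4 were detected, against 67.6% of protein-coding symbols, and none was listed at 0. Nefh had 125 fragments, Trpv1 44.6, Prph 5.70 and Scn10a 0.584, the last in 1 library. P2rx3 and Avil had 3366 and 19615 at loci shared with Ssrp1 and with Tsfm. Fewer cells of a type and less RNA per cell cannot be told apart in such whole-bud RNA. The part of nerve RNA in the level of Calca was not tested.

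Ghrelin, the stomach hormone of hunger, is encoded by Ghrl. Its locus (chromosome 6, 113714971 to 113719880) had 167 compatible fragments, a CV of 0.299 and 293 total fragments. That locus also holds Gm26982 on the opposite strand, and Ghrl exons make up 31.5% of its exon bases, so the level may belong to either gene. Mboat4, which encodes the enzyme that acylates ghrelin, had 72.6 fragments. The ghrelin receptor gene Ghsr was listed at 0 compatible and 7.79 total fragments.

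Leptin genes were near or below the detection level. Lep (chromosome 6, 29060220 to 29073877) had 10.6 compatible fragments with a CV of 1.01. The leptin receptor gene Lepr, with 9 annotated transcripts of which 2 were new isoforms, had 12.7 total fragments, and 1.34 of them were compatible. Below the receptor, Jak2, the kinase that leptin receptors use, had 3178 fragments, and Socs3, which restrains leptin signalling, had 504 with a CV of 0.776. These genes also serve many other receptors.

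Agrp, the hunger peptide of hypothalamic neurons, counted as detected only through a shared locus. That locus had 2581 compatible fragments with a CV of 0.0864, but it holds 7 other gene symbols, among them Ctcf. Agrp exons are 7.93% of its exon bases. Pomc, the precursor of melanocortins that reduce feeding, had a locus of its own with 5.02 fragments and a CV of 0.711. Their shared target gene Mc4r was listed at 0 compatible and had 18.9 total fragments.

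Npy showed the widest gap between the columns. Neuropeptide Y, its product, stimulates feeding in the hypothalamus. The locus (chromosome 6, 49822710 to 49829507, plus strand) had 0.336 compatible but 1482 total fragments, with a CV of 0.352 in the total. Compatible fragments were thus 0.0227% of the total. Among 2715 single-gene protein-coding loci with a total of at least 1000 fragments, 18 had a compatible share under 1% and 6 a lower share than Npy, while the median share was 97.6%. The annotation gives Npy 1 transcript whose exons cover 8.33% of the locus, and no new isoform was assembled there. Its 291 coding bases from GENCODE M21, without the stop codon, are the coding part of the 566 exon bases that a compatible fragment can match. They span 49823598 to 49829324, with 6 bases on each side of the 2 junctions between coding exons in capitals.
Npy: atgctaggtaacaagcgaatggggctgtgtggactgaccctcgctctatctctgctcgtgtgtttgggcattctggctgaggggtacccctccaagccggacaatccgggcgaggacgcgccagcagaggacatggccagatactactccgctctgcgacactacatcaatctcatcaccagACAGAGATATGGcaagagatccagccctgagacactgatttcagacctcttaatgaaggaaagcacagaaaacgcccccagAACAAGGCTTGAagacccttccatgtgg
Where in the locus the fragments lay, and whether they came from Npy messenger RNA, was not tested.

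The same kind of gap appeared at other hormone and receptor loci. Altogether 8 genes had at least 10 total but under 10 compatible fragments, 19.0% of the 42 against 4.86% of protein-coding symbols. By total fragments 25 of the 42 reached 10, against 72.5% of protein-coding symbols. Adipoq, which encodes adiponectin, had 85.5 total fragments with a CV of 0.463 and was listed at 0 compatible. Gcgr, the glucagon receptor gene, had 36.2 total and 1.07 compatible fragments at a locus with Gm11789 on the opposite strand. Grp, which encodes gastrin-releasing peptide, had 20.1 total and 0.0789 compatible, the latter all in 1 library. Gipr, the receptor gene for the incretin GIP, had 13.6 and 1.06. At Mc4r the annotated exon covers 100% of the locus, so its 18.9 total fragments overlapped the exon and still matched no transcript. Lepr and Penk complete the 8, but Penk had little gap, with 9.53 compatible of 10.8 total fragments, or 88.3%. It counts among the 8 only because its columns fall on either side of 10.

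Other ligand genes were at or close to 0. Gcg, the source of glucagon and GLP-1, and Gip had 0 fragments in both columns. Vip, Sst and Nts were listed at 0 compatible, with 0.451, 0.797 and 0.145 total fragments. Pyy, a gut satiety peptide gene, had 0.352, and all of these fragments came from 1 library of the set of 8. Cck and Oxt had 0.0472 and 0.0351 fragments, each in 1 library of the set of 7. Gal, which encodes galanin, had 0.903. Tac1, the substance P gene, had 4.05 with a CV of 4.14, and at least 81.5% of its fragments came from 1 library. Penk had a CV of 2.85, with at least 38.7% from 1 library, and its locus also holds A830012C17Rik. None of these loci reached the detection level.

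Of the 17 detected genes, 10 were receptors whose paired ligand was not detected by compatible fragments. In that column 4 of 19 ligands were detected, 21.1%, against 67.6% of protein-coding symbols. By total fragments Npy and Adipoq reached 10, so Npy1r, Adipor1 and Adipor2 had a paired ligand there. Oxtr, the oxytocin receptor gene (chromosome 6, 112473684 to 112489808), had 1402 compatible fragments, while Oxt had 0.0351. Compatible fragments were 99.9% of the Oxtr total, and its CV was 0.287. Adipor1 had 8768 fragments with a CV of 0.0611 and Adipor2 had 2705 with a CV of 0.141. Adipoq was listed at 0 compatible and 85.5 total fragments. Vipr1 and Vipr2, both receptors for vasoactive intestinal peptide, had 104 and 78.0 fragments with CVs of 0.412 and 0.608. Vipr2 shares its locus with Gm20658 and had 206 total fragments. Sst was at 0 while the Sstr2 locus had 2600, but that locus holds 6 other gene symbols, among them Cog1 and Slc39a11, and Sstr2 exons are 12.8% of its exon bases. Sstr3, another somatostatin receptor gene at a locus of its own, had 67.3 fragments.

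Neuropeptide Y receptors were uneven. Npy1r (chromosome 8, 66697422 to 66706798) had 112 fragments with a CV of 0.650. Npy2r and Npy5r were listed at 0 compatible, with 2.84 and 1.498 total fragments. Npy4r, whose product prefers pancreatic polypeptide, had 42.04, and its ligand gene Ppy was listed at 0.

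Gut hormone receptors were low. Cckar, the receptor gene for cholecystokinin in the gut, had 20.5 fragments with a CV of 0.940, and Cckbr had 4.17. Galr1, a galanin receptor gene, had 27.6 with a CV of 0.854. Glp1r, the receptor gene for GLP-1 (chromosome 17, 30901867 to 30936510), had 15.1 fragments with a CV of 3.25. At least 50.3% of the Glp1r fragments came from 1 library, so the mean of the other 20 was at most 7.89, under the detection level. Cnr1, the cannabinoid receptor gene, had 0.189 compatible fragments, all in 1 library, and 4.97 in total. All 7 genes of endocannabinoid synthesis and breakdown were detected, against 67.6% of protein-coding symbols, and 4 of the 7 had a locus to themselves. Napepld had 3211 fragments at a locus with Gm15719, Daglb 1477 and Faah 760. Cnr2 had 15.2.

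Insulin and IGF receptors were both detected. Insr had 2021 fragments (CV 0.161), and it makes up 96.9% of the exon bases of a locus that also holds Gm16180. Igf1r had 358 total fragments, of which 166 were compatible (CV 0.296). Neither insulin gene gave compatible fragments: Ins1 and Ins2 were listed at 0, with 6.90 and 0.191 in total. Igf1, which encodes a ligand of Igf1r, had 10840 fragments (CV 0.161). Its antisense gene Igf1os shares the locus. Of 18 genes of signalling below leptin and insulin receptors, 17 were detected, against 67.6% of protein-coding symbols. Of these 17, 9 had a locus to themselves. Irs4 was listed at 0. Akt2, a kinase of insulin signalling, had 1923 fragments. Irs1, which encodes an adaptor of the insulin receptor, had 359 at a shared locus.

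The 21 ligand and receptor pairs within the 42 genes summarise these levels. In 11 pairs only the receptor was detected, in 3 only the ligand and in 7 neither, so no pair had both by compatible fragments. Of the ligands 21.1% were detected and of the receptors 57.1%, against 67.6% of protein-coding symbols. Whether the pairs departed from these shares was not tested. The 3 with the ligand alone were Lep with Lepr, Ghrl with Ghsr and Agrp with Mc4r. By total fragments 5 pairs had both, through Npy, Adipoq, Lepr and Mc4r. Pairs share genes, so these counts are not independent of each other.

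**Figure D3:**
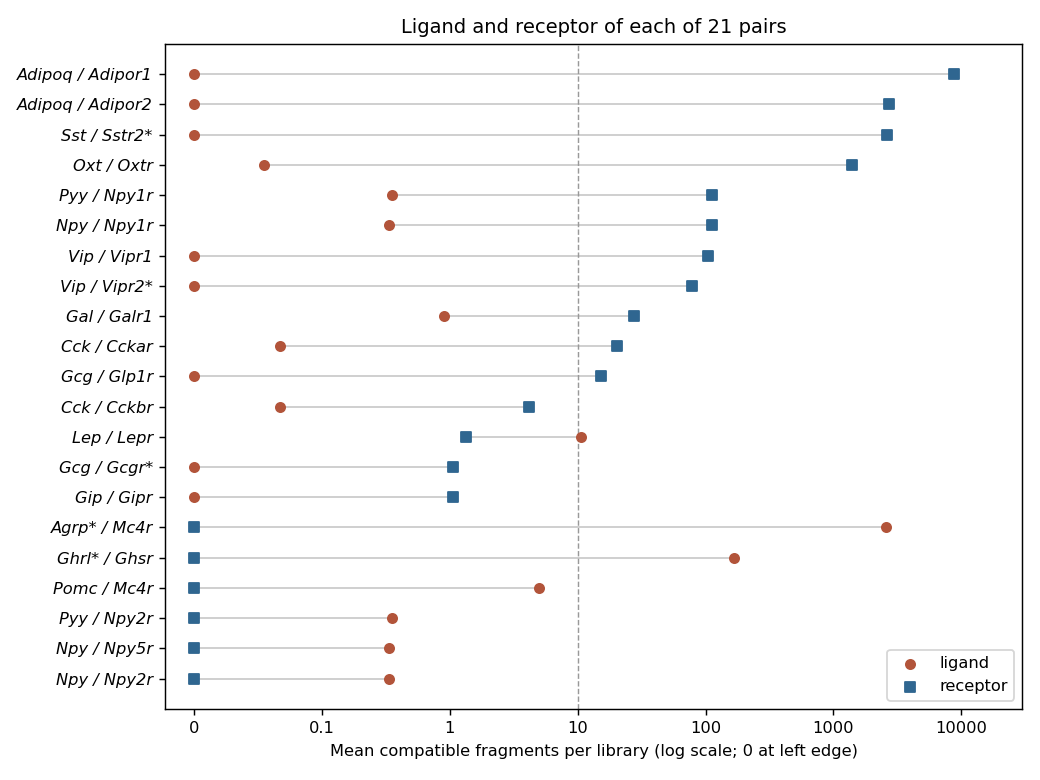
Mean compatible fragments per library (log axis, 0 at the left edge) of ligand (circle) and receptor (square) in 21 pairs. The dashed line is the detection level of 10 and an asterisk marks a locus shared with other genes. In no row do both symbols lie right of the line.

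Genes that make and release peptide hormones were widely detected. Pcsk1, which starts the cleavage of many hormone precursors (chromosome 13, 75089826 to 75132498), had 3751 compatible fragments with a CV of 0.202. Pcsk2, the convertase for later cuts, had 3.13 at a locus with Pcsk2os1 and Pcsk2os2. Of 21 other genes for peptide processing and secretion, 20 were detected, against 67.6% of protein-coding symbols. Of these 20, 13 had a locus to themselves. Cpe, the carboxypeptidase that trims the cut ends, had 13717 fragments with a CV of 0.107. Scg5, which encodes a chaperone of the Pcsk2 enzyme, had 1309, and the granule genes Chgb and Chga had 645 and 356. Mme, the gene of a peptidase that breaks down many peptides, had the most fragments of this list, 47934, before division by length. Per kb of exon it had 4153, under Cpe at 6572. Pcsk1n, which encodes an inhibitor of the Pcsk1 enzyme, was the 1 gene of the list not detected, at 1.27 fragments.

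Further receptors and ligands linked to the 42 genes were mixed. Of 30 other receptor genes for the same ligands, 28 were found in the annotation and 13 were detected, against 67.6% of protein-coding symbols. Of these 13, 7 had a locus to themselves. Tacr1, the substance P receptor gene, had 83.8 fragments, and the opioid receptor gene Oprd1 had 29.0. Sort1, whose product binds neurotensin, had 4854 at a shared locus although Nts was listed at 0. Grpr had 0.145 fragments. Of 12 other ligand genes, 5 were detected, against the same 67.6%, among them Pdyn at 31.1 for dynorphin. Of these 5, 2 had a locus to themselves.

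Variation within sets of libraries set some of the detected genes apart. Of the 17, 8 had a variance above the authors' fitted variance for their level, 47.1%, against 26.1% of 13467 detected loci. The median log2 ratio of variance to fitted variance was −0.06, against −0.65 over all detected loci. The 8 were Glp1r at 3.57, Oxtr at 1.06, Npy1r at 0.75, Pcsk1 at 0.57, Calca at 0.51, Cckar at 0.21, Galr1 at 0.17 and Vipr2 at 0.16 on the log2 scale. Glp1r rests on 1 library as given above. Steadiest was Adipor1 at −2.76, followed by the shared loci of Agrp at −2.04 and Sstr2 at −1.28. Igf1r and Ghrl were alike at −1.08 and −1.06. Adipor2, Vipr1, Insr and Lep lay between −0.65 and −0.06.

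**Figure D4:**
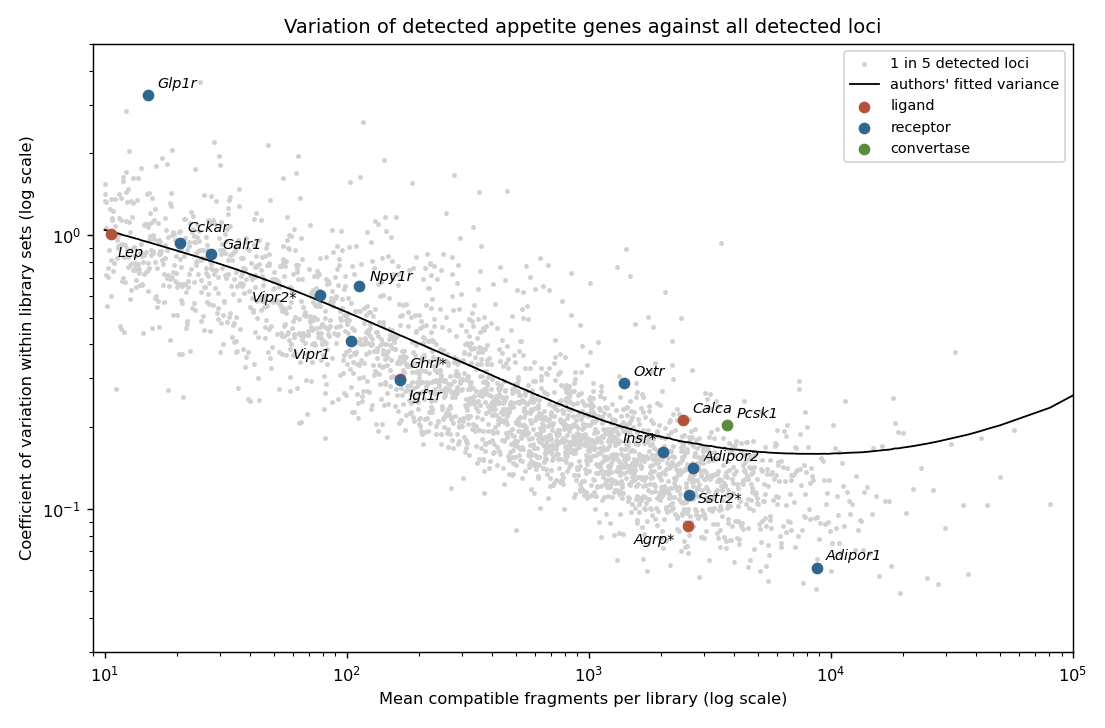
Coefficient of variation within library sets against mean compatible fragments, both on log axes, for the 17 detected genes. Grey points are 1 in 5 of all detected loci, the line is the authors' fitted variance, and an asterisk marks a shared locus. Glp1r lies far above the line, Oxtr, Calca and Pcsk1 above it, and Adipor1 below it.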

How the data were processed

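RNA of circumvallate papillae was sequenced as 21 libraries. Trimmomatic and FastQC are listed, and TopHat with Bowtie2, Cufflinks, Cuffdiff and GRCm38.p4 are also listed, per the submitters' processing notes. Their versions and settings were not given in the sources used here. One deposited file is a Cufflinks annotation of merged transcripts and the other holds Cuffdiff's variance model, per the file headers. Its values are a signal: the authors' means and variances of size-factor-scaled fragments, not divided by length.

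From these, loci were joined to gene symbols by their exons, and levels were divided by the merged exon length of the gene. A gene was called detected from a locus mean of 10 compatible fragments upwards, shared loci included. A locus seen in 1 library alone has a fixed ratio of variance to squared mean, matched here to a relative 0.0001, and the smallest possible share of the leading library is that ratio divided by 21. The match of single-library loci, the smallest leading share and the running median named below were tested on simulated libraries in sets of 8, 7 and 6. The joining of loci to symbols and the division by length were not. The simulated variance was itself taken within these sets, so it checked the calculation and not how the authors' variance was made. Biotypes and sequences came from GENCODE M21 (GRCm38). All 42 genes were to be accounted for, with full values where they or their partner were detected, and other list genes where they bind, make or cleave a detected product. Some further genes, such as Mme and Akt2, were picked with their values in view. The members and lists were chosen with earlier results of these data known. The level of 1 list gene is not reported. No test was possible, because the table pools all libraries. Alternatives covered detection levels, total fragments, loci of 1 gene, transcript length and a running median of 201 loci in place of the fitted variance. Software was pandas 2.3.3 with numpy 2.4.6 under Python 3.11.15, and matplotlib 3.10.9 for the plots.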

Additional observations from a re-analysis of the deposited data

How the results depend on the processing

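The count of detected genes, 17 at a mean of at least 10 compatible fragments, was 25 at 1 fragment, 13 at 50 fragments, 25 by total fragments and 12 at loci of 1 gene. The count above the fitted variance, 8 of 17, became 5 of 13 with at least 50 fragments, where the background was 23.6% of loci. The genes left out there were Glp1r, Cckar and Galr1, all above the fitted variance, and Lep, below it. Glp1r rests on 1 library. The count was 7 of 12 at loci of 1 gene and 11 of 17 against a running median, where the background was 49.9%. By total fragments against a running median it was 16 of 25, with 49.8% of loci above. The median level per kb of the 12 genes, 37.2, stayed the same by the longest transcript and was 59.0 by total fragments. By the longest transcript 4 of 12 single levels moved beyond 1 SD, and by total fragments 1 did, Igf1r, from 37.1 to 79.6 per kb. Oligo(dT) priming is stated in the labels, and its effect on levels per kb was not tested. No paired analysis was possible because the table holds no values per library or per group, and for the same reason no library could be left out. Detection near 10 fragments is limited by depth, and a gene listed at 0 was not detectable here rather than shown to be absent.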
